A study of Homo sapiens with 8 samples.

Results

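The genes described here are the human ZNF genes, named by a number after the letters ZNF, that were detected in PC3 cells, an established line from a human prostate carcinoma. They were selected on measured values: a gene entered if at least 1 of its probes had a detection p-value under 0.01, the array software's test of a probe against its negative controls, on at least 4 of 7 arrays. Of 420 such genes with a probe on the array, 236 met this rule, within 9272 tested genes of 18850 with a probe. All 236 are protein coding in RefSeq.

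The groups were PC3 cells given an siRNA against TRPM2-AS, an antisense transcript of the TRPM2 channel gene, and PC3 cells given a non-specific control siRNA. Cells of both groups grew in DMEM with serum and were harvested after 48 h, with 4 labelled samples in each. The siRNA was 1 reagent in 1 cell line, and the labels do not say whether replicates were separate cultures, and if they were not, p-values cover only technical spread. The labels give total RNA as the extracted molecule and biotin as the label, for 1-colour Illumina bead arrays. No probe named for TRPM2-AS was found, so its depletion was not checked here.

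Most ZNF proteins carry arrays of C2H2 zinc fingers, each finger reading a few bases of DNA. Many also carry a KRAB domain, which recruits the corepressor TRIM28 and with it the H3K9 methyltransferase SETDB1, HP1 proteins and the NuRD histone deacetylase complex to silence transposable elements and genes. These genes multiplied by tandem duplication and lie in large clusters on chromosome 19, which themselves carry H3K9 methylation.

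Arrays were compared on background-corrected, quantile-normalized log2 intensity. Of the 8 columns of raw signals, 7 ranked all probes as 1 labelled sample of their own group did (Spearman rho of 1). The column named second for TRPM2-AS siRNA matched none (highest rho 0.8321) and was left out, so 3 TRPM2-AS siRNA arrays were set against 4 control arrays. Between 13832 and 14318 probes were detected per TRPM2-AS siRNA array, and between 13163 and 13972 per control array. The epithelial markers KRT8, KRT18, KRT19 and EPCAM and the markers VIM and CD44 were detected on every one of the 7 arrays. Of the blood and endothelial markers with a probe, PTPRC, CD3E, HBB, PECAM1, CDH5 and VWF were detected on none, and of 4 fibroblast markers COL1A1 was on all 7 and the others on none. Of the androgen receptor axis, KLK2 and KLK3 were detected on none of the 7 arrays, and TMPRSS2 on 2 of 3 arrays after TRPM2-AS siRNA and 1 of 4 controls. Across the 236 genes, the Pearson correlation of log2 levels ranged from 0.967 to 0.987 within the TRPM2-AS siRNA group, from 0.980 to 0.986 within the control group, and from 0.879 to 0.914 between groups.

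Promoters are shown for 6 genes on which the results below turn: a run of 4 neighbours that were all higher, the gene with the highest fold change, and a gene from a run that was lower. Each is RefSeq sequence of GRCh38.p14, 250 bases before to 50 after the gene's start, written 5′ to 3′ on the gene's strand. Capitals mark AAGATGGC, a YY1 motif, or CCGGAAG, an ETS motif, or their reverse complements. The 4 neighbours came first.
ZNF613, chr19:51927222-51927521, plus strand: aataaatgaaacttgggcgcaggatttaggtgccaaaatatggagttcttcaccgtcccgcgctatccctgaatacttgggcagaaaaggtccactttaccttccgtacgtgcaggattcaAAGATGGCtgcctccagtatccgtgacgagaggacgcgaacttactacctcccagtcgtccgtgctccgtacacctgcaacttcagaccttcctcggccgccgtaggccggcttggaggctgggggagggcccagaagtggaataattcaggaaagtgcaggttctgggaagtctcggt
ZNF350, chr19:51986791-51987090, minus strand: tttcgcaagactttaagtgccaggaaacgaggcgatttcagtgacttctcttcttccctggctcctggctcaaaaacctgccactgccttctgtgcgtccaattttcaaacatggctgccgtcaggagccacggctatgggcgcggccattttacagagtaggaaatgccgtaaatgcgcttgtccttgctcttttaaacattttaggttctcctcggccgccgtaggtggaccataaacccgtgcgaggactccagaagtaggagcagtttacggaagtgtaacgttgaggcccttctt
ZNF615, chr19:52008162-52008461, minus strand: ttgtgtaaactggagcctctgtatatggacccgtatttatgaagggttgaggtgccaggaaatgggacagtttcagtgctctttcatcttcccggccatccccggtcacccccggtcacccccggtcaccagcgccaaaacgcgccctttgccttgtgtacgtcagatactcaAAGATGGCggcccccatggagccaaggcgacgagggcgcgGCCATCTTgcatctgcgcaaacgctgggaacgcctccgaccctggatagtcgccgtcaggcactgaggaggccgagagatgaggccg
ZNF614, chr19:52028330-52028629, minus strand: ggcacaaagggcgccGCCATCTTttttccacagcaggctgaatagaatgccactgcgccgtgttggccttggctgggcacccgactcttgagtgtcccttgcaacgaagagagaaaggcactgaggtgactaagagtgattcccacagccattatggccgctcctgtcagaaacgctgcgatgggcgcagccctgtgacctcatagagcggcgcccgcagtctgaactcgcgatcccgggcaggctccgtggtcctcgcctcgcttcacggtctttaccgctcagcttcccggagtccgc
The YY1 letters stood in 3 of these 4 windows, beginning at base 122 in ZNF613, at bases 174 and 214 in ZNF615 and at base 16 in ZNF614, counted from the window's 5′ end. Next are ZNF256, the gene with the highest fold change, and ZNF347, one of 3 neighbours that were lower.
ZNF256, chr19:57947657-57947956, minus strand: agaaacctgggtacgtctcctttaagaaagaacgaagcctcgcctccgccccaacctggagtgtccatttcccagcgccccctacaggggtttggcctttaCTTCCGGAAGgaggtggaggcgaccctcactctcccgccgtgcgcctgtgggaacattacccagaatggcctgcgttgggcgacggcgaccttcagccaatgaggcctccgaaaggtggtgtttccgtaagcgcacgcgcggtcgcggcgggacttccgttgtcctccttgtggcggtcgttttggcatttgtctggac
ZNF347, chr19:53159004-53159303, minus strand: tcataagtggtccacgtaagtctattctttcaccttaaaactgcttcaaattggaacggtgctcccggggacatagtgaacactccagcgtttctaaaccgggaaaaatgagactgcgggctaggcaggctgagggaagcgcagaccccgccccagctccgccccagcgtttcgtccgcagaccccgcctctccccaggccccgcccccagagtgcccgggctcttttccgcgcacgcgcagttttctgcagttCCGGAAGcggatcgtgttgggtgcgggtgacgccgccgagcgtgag
In ZNF256 a pair of overlapping ETS matches on opposite strands began at bases 102 and 105, and in ZNF347 1 match began at base 255.

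A promoter was found for 204 of the 236 genes, and 6 motifs were searched on both strands. The ETS letters CCGGAAG stood in 39.7% of these 204 promoters, against 20.4% of the 7694 tested genes with a promoter and 10.7% of all 27305 promoters of the same length. Among the ZNF genes, they stood in 49.1% of 55 promoters of genes that were higher after TRPM2-AS siRNA, 31.6% of 57 that were lower and 39.1% of 92 that did not pass the test. The cyclic AMP response element TGACGTCA stood in 4 of the 55 higher (7.27%), 0 of the 57 lower and 7 of the 92 that did not pass (7.61%), against 3.5% of tested genes. The YY1 letters stood in 4.9% of ZNF promoters, 10 in all, against 5.91% of tested genes. By call, these were 3 of the 55 higher (5.45%), 3 of the 57 lower (5.26%) and 4 of the 92 that did not pass (4.35%). The 3 higher genes with YY1 letters are those printed above. The other 3 motifs, GCATGCGC for NRF1, TGANTCA for AP-1 and ACTACAA for ZNF143, stood in 4.9%, 5.39% and 5.39% of ZNF promoters, against 5.99%, 4.25% and 3.82% of tested genes. In higher and lower genes NRF1 stood in 7.27% and 5.26%, AP-1 in 5.45% and 7.02%, and ZNF143 in 5.45% and 7.02%. The median GC content was 61% in higher genes and 63% in lower ones, against 65.3% over tested genes, and its part in these shares was not tested. No test was run on the motif shares, and a match is a match of letters, not a binding site.

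The 236 ZNF genes changed about as often as other genes did, in both directions. With limma and Benjamini-Hochberg adjustment over all 9272 genes at 0.05, 127 of the 236 (53.8%) passed, against 57.0% of all genes tested. Of these, 60 (25.4%) were higher after TRPM2-AS siRNA, against 27.4% of all genes, and 67 (28.4%) were lower, against 29.6%. A change of at least 2-fold was reached by 12 higher and 15 lower genes. These 27 of 236 were a smaller share than the 17.5% over all genes, a difference that was not tested. The arrays of both groups did not overlap for 117 genes (49.6%), against 57.3% of all genes. The median log2 fold change, TRPM2-AS siRNA minus control siRNA, was -0.00 over the ZNF genes and -0.01 over all genes. In bulk RNA such as this, less RNA per cell and fewer cells of a kind cannot be told apart.

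**Figure D1:**
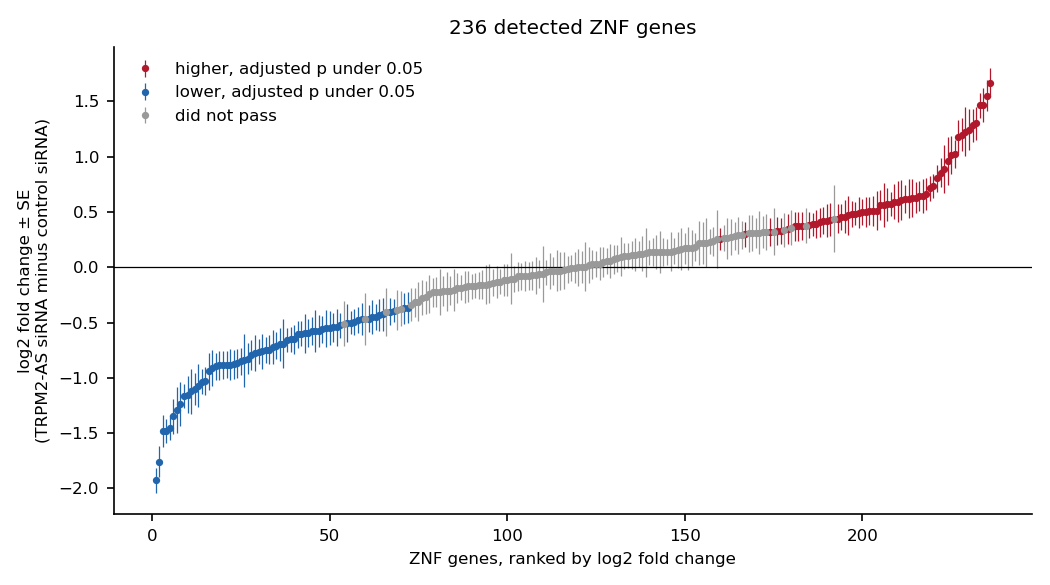
Log2 fold change (TRPM2-AS siRNA minus control siRNA, y axis) of each of the 236 detected ZNF genes, ranked along the x axis, with bars of 1 SE; colours separate the 60 genes that passed the test as higher, the 67 that passed as lower and the 109 that did not pass. The values run from -1.93 to 1.67 and centre on 0.

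Among the 127 genes that passed, 55 differed by less than 1.5-fold, and the arrays of 13 overlapped between groups. Of the 109 that did not pass, 108 had a 95% interval of the log2 fold change lying within 1 of 0 and 58 within 0.5, so for 108 a change of 2-fold lay outside the interval. Detection was complete for most: 210 genes were detected on all 7 arrays, 12 on 6, 6 on 5 and 8 on 4. Genes detected mainly in 1 group entered because they were high there. Among the 210 on all arrays, 53 were higher and 62 lower (54.8% in all), against 56.6% of all genes detected on all 7.

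The highest fold change was that of ZNF256. This gene of chromosome 19, known as a KRAB repressor that binds TRIM28, had log2 intensities of 8.83, 8.80 and 8.71 in TRPM2-AS siRNA arrays, against 7.42, 7.05, 6.97 and 7.02 in control arrays. Every TRPM2-AS siRNA array lay above every control array, and the difference was 1.67 ± 0.13 (SE), limma adjusted p = 1.47e-06, a 3.18-fold increase. The left-out array read 8.10, between the groups. Values of the left-out array here and below come from normalizing all 8 columns together, so their scale can differ slightly from that of the 7 arrays.

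ZNF800, a C2H2 repressor known from enteroendocrine cell differentiation, had 8.86, 8.84 and 8.66 in TRPM2-AS siRNA arrays, against 7.30, 7.13, 7.01 and 7.51 in control arrays. The groups did not overlap, with a log2 fold change of 1.55 ± 0.14 (SE), limma adjusted p = 3.16e-06. ZNF626, a KRAB family gene, had 9.94, 9.37 and 9.60 in TRPM2-AS siRNA arrays, against 8.25, 7.93, 8.23 and 8.28 in control arrays. All 3 TRPM2-AS siRNA arrays were higher, by 1.47 ± 0.15 (SE), limma adjusted p = 1.08e-05, while 1 control array lay below the other controls. These are the values of its brightest probe; its other passing probes stood at 0.77, also called, and -0.01, not past the test, and the mean of the probes gave 0.74. ZNF419, a KRAB gene known as a source of a minor histocompatibility antigen, had 9.78, 9.84 and 9.80 in TRPM2-AS siRNA arrays, against 8.26, 8.35, 8.22 and 8.54 in control arrays. Its TRPM2-AS siRNA arrays were almost identical and lay above all controls, with a log2 fold change of 1.46 ± 0.12 (SE), limma adjusted p = 1.43e-06.

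Genes with other roles stood among them. ZNF185 encodes a LIM-domain protein of the actin cytoskeleton, not a C2H2 factor, and had 10.27, 10.69 and 10.63 in TRPM2-AS siRNA arrays, against 9.23, 9.14, 9.04 and 9.49 in control arrays. It was higher on every array, by 1.30 ± 0.15 (SE), limma adjusted p = 2.01e-05, and the left-out array read 10.03, between the groups. ZNF281, a C2H2 factor linked to pluripotency and epithelial-mesenchymal transition, had 10.69, 10.50 and 10.24 in TRPM2-AS siRNA arrays, against 8.71, 9.30, 9.46 and 9.46 in control arrays. The groups were apart although the control arrays spread over a wide range, and the difference was 1.24 ± 0.19 (SE), limma adjusted p = 1.87e-04. ZNF165, a SCAN zinc finger gene known as a cancer-testis antigen, rose by 1.20 ± 0.15 (SE) on the log2 scale, but lost the call when the left-out array was included (adjusted p = 0.179). ZNF559 rose by 1.28, ZNF467 by 1.23, ZNF329 by 1.02 and ZNF672 by 1.01, each with groups apart. ZNF467 stood at 0.70 without background correction and at 0.79 on the authors' processed values, still past the test in both.

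Some increases rested on signals near background. ZNF235, a KRAB gene, rose by 1.18 ± 0.15 (SE) and was detected on every TRPM2-AS siRNA array but on only 1 of 4 control arrays. ZNF227 rose by 0.89 with the same detection pattern, and ZNF567 by 0.96 with 2 of 4 control arrays detected. Without background correction the log2 fold changes were 0.56 for ZNF235, 0.41 for ZNF227 and 0.49 for ZNF567. ZNF134 rose by 0.85 and was detected on all arrays.

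The largest decrease was in ZNF473, also called ZFP100, a component of the U7 snRNP machinery that forms the ends of replication-dependent histone mRNAs. It had 7.81, 8.05 and 8.02 in TRPM2-AS siRNA arrays, against 9.99, 9.89, 9.82 and 9.85 in control arrays. All 3 TRPM2-AS siRNA arrays were far below all controls, with a log2 fold change of -1.93 ± 0.11 (SE), limma adjusted p = 1.79e-07, a 3.80-fold decrease. The left-out array read 9.28, nearer the controls.

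ZNF395, a hypoxia-induced transcription factor, had 9.34, 8.90 and 9.02 in TRPM2-AS siRNA arrays, against 11.09, 10.80, 10.77 and 10.71 in control arrays. The groups were well apart, with a log2 fold change of -1.76 ± 0.14 (SE), limma adjusted p = 1.68e-06. ZNF589, a KRAB gene known from haematopoietic stem cells, had 7.06, 6.75 and 7.04 in TRPM2-AS siRNA arrays, against 8.75, 8.38, 8.29 and 8.31 in control arrays. Its TRPM2-AS siRNA arrays were all lower, with a log2 fold change of -1.48 ± 0.14 (SE), limma adjusted p = 6.57e-06, and the left-out array read 8.52, near the control values. ZNF275 had 8.96, 8.74 and 9.0002 in TRPM2-AS siRNA arrays, against 10.39, 10.41, 10.41 and 10.32 in control arrays. Both groups were tight and apart, with a log2 fold change of -1.48 ± 0.11 (SE), limma adjusted p = 9.64e-07, and the left-out array read 10.35, also near the control values.

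A pair of lower genes encode proteins that act on RNA. ZNF346, or JAZ, binds double-stranded RNA and had 6.09, 6.07 and 6.26 in TRPM2-AS siRNA arrays, against 7.68, 7.50, 7.58 and 7.60 in control arrays. No array overlapped, and the difference was -1.45 ± 0.11 (SE), limma adjusted p = 1.03e-06. ZNF598 encodes the ubiquitin ligase that marks collided ribosomes and had 9.90, 10.90 and 10.64 in TRPM2-AS siRNA arrays, against 11.64, 11.77, 11.67 and 11.78 in control arrays. Its TRPM2-AS siRNA arrays were all lower but spread over about 1 log2 unit, and the difference was -1.24 ± 0.20 (SE), limma adjusted p = 2.79e-04.

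The remaining genes of the 15 largest decreases were ZNF789, ZNF580, ZNF362, ZNF514, ZNF704, ZNF695, ZNF827, ZNF35 and ZNF839, with log2 fold changes of -1.35 to -1.03 and groups apart. Of these, ZNF789, ZNF580, ZNF514, ZNF704, ZNF695, ZNF827 and ZNF839 lost the call with the left-out array included. The brightest probe of ZNF789 read -1.35, but its other probe, detected on all 7 arrays, read 0.08 and did not pass, and their mean gave -0.63. ZNF514 was detected on 2 of 3 TRPM2-AS siRNA arrays, and without background correction its log2 fold change was -0.59. That of ZNF704 was -0.65 without background correction and -0.61 on the authors' processed values. ZNF526 was detected on 0 of 3 arrays after TRPM2-AS siRNA and on 4 of 4 control arrays, and entered the rule through the controls alone. It was at least 1.497-fold lower, a bound set against the lowest detected signal of each array (measured log2 means 5.63 in TRPM2-AS siRNA arrays and 6.52 in control arrays).

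**Figure D2:**
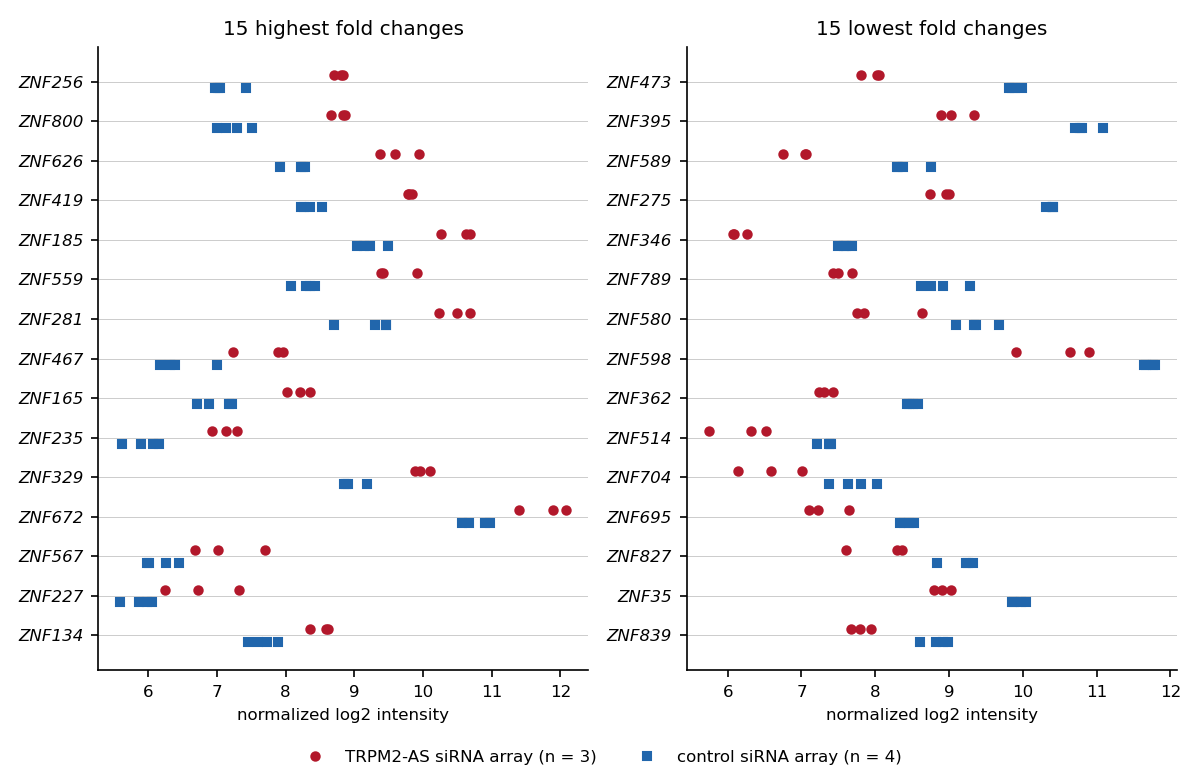
Normalized log2 intensity (x axis) on each array for the 15 highest and 15 lowest log2 fold changes among ZNF genes that passed the test with groups apart; red circles are TRPM2-AS siRNA arrays (n = 3) and blue squares control arrays (n = 4). In no gene shown do the circles reach into the squares; levels of different genes come from different probes and are not comparable.

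ZNF genes on chromosome 19 were more often higher and those elsewhere more often lower. Of 111 on chromosome 19, 36 (32.4%) rose and 23 (20.7%) fell, with a median log2 fold change of 0.14. Of 125 on other chromosomes, 24 (19.2%) rose and 44 (35.2%) fell, with a median of -0.12. Other genes of chromosome 19 did not have this split: of 524, 141 rose and 138 fell, with a median of 0.01. The 8506 other genes elsewhere had 2338 higher and 2534 lower, with a median of -0.01. Among ZNF genes detected on all 7 arrays, 32 of 97 rose and 20 fell on chromosome 19, and 21 of 113 rose and 42 fell elsewhere. These are counts without a test of the difference, and the genes of a cluster are not independent. Including the left-out array left 12 higher and 6 lower on chromosome 19, and 6 higher and 18 lower elsewhere.

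Elsewhere, 5 chromosomes held at least 10 detected ZNF genes, and their counts of higher and lower genes can be read beside the shares of 27.4% and 29.6% over all genes. On chromosome 1, 6 of 12 rose and 3 fell, on chromosome 7, 5 of 13 rose and 5 fell, and on chromosome 8, 0 of 12 rose and 3 fell. On chromosome 10, 3 of 10 rose and 4 fell, and on chromosome 16, 2 of 16 rose and 5 fell.

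**Figure D3:**
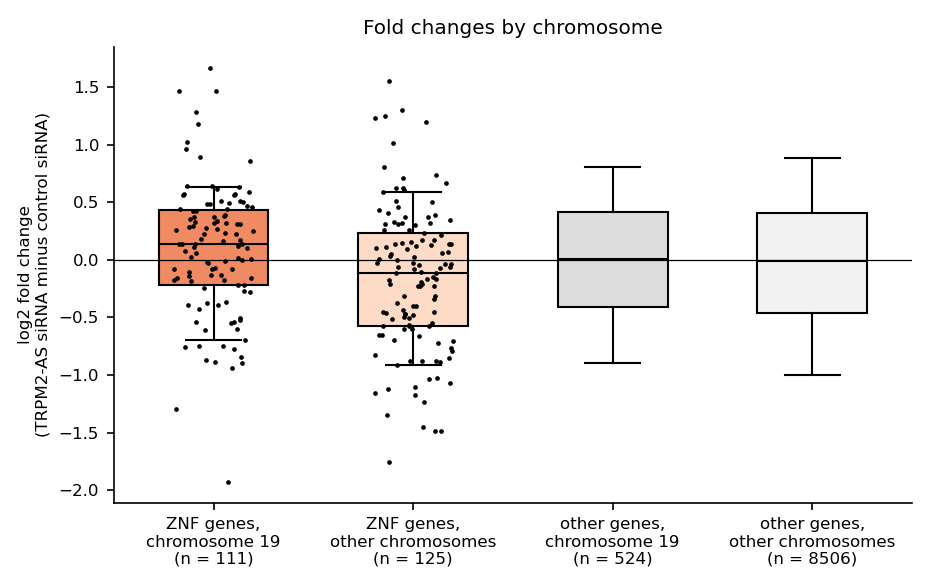
Log2 fold change (TRPM2-AS siRNA minus control siRNA, y axis) of ZNF genes on chromosome 19 and on other chromosomes, beside other tested genes of chromosome 19 and of other chromosomes; boxes show quartiles and the median, whiskers the 10th and 90th percentiles, and points each ZNF gene. The median of the ZNF genes is 0.14 on chromosome 19 and -0.12 elsewhere, and both medians of other genes lie within 0.02 of 0.

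Some neighbouring ZNF genes of chromosome 19 changed together, and the runs described here were picked out after their values were seen. Among 53 pairs of detected ZNF genes that are next to each other in the order of protein-coding genes, both genes passed the test in 20. Both were higher in 8 of these and both lower in 4, and 8 went opposite ways (60% the same way). On chromosome 19, 13 of 36 pairs had both called, with 7 both higher, 3 both lower and 3 opposite (76.9% the same way). Among 4693 other neighbouring pairs of tested genes, 1564 had both called and 53.8% of them went the same way. These shares were not tested, and pairs within a run share genes. Several calls in these pairs were lost when 1 array was left out, as given below. Duplicated ZNF genes can be close in sequence, and probe sequences were not used here, so hybridisation of 1 transcript to a neighbour's probe was not tested.

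The run ZNF613, ZNF350, ZNF615 and ZNF614, whose promoters are printed above, was higher throughout. ZNF350, or ZBRK1, a KRAB protein that binds BRCA1 and represses GADD45A, had 7.35, 7.57 and 7.61 in TRPM2-AS siRNA arrays, against 7.10, 7.10, 6.68 and 6.93 in control arrays, a log2 fold change of 0.56 ± 0.14 (SE), limma adjusted p = 0.00446. ZNF615 had 10.19, 10.25 and 10.17 in TRPM2-AS siRNA arrays, against 9.68, 9.54, 9.72 and 9.59 in control arrays, a log2 fold change of 0.57 ± 0.11 (SE), limma adjusted p = 8.44e-04. Every TRPM2-AS siRNA array of both genes lay above every control array. ZNF614 had 9.43, 9.49 and 9.30 in TRPM2-AS siRNA arrays, against 9.06, 8.78, 9.01 and 9.12 in control arrays, a log2 fold change of 0.42 ± 0.12 (SE), limma adjusted p = 0.0115. ZNF613 had 8.59, 8.36 and 8.37 in TRPM2-AS siRNA arrays, against 8.22, 7.92, 8.23 and 8.12 in control arrays, a smaller difference of 0.32 ± 0.12 (SE), limma adjusted p = 0.0441, with groups apart but close. Its call was lost when any 1 of the 7 arrays was left out (adjusted p = 0.0515 to 0.125). The next gene, ZNF432, did not pass, at 0.00 ± 0.17 (SE).

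The run ZNF160, ZNF415 and ZNF347 was lower. ZNF415, whose product is known to repress AP-1 and p53 reporter activity, had 8.26, 7.91 and 7.91 in TRPM2-AS siRNA arrays, against 8.74, 8.62, 8.91 and 8.83 in control arrays, a log2 fold change of -0.75 ± 0.13 (SE), limma adjusted p = 4.86e-04. ZNF347 had 6.11, 6.18 and 5.85 in TRPM2-AS siRNA arrays, against 7.07, 6.93, 6.78 and 6.94 in control arrays, a difference of -0.88 ± 0.12 (SE), limma adjusted p = 1.10e-04. The groups were apart in both. ZNF347 was not detected on all 7 arrays, and without background correction its log2 fold change was -0.42. ZNF160 fell by 0.43 (limma adjusted p = 0.0276) by its brightest probe, but its 3 probes disagreed: a second probe, detected on 1 of 4 control arrays, was higher by 0.66 and called, and the third was at -0.17 and did not pass. The call of the brightest probe was lost without the second or the third control column or the first or the fourth TRPM2-AS siRNA column (adjusted p = 0.0613 to 0.0914). With its probes averaged, ZNF160 stood at 0.02.

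Other neighbours moved apart. ZNF784 was lower, at a log2 fold change of -0.94 ± 0.17 (SE), limma adjusted p = 5.62e-04, and ZNF580 was lower, at a log2 fold change of -1.29 ± 0.21 (SE), limma adjusted p = 3.06e-04, while ZNF581 between them was higher by 0.44 ± 0.13 (SE), limma adjusted p = 0.0138. No array of ZNF581 overlapped between groups. Of the remaining chromosome 19 pairs, ZNF419 with ZNF773, ZNF134 with ZNF211, ZNF93 with ZNF682, and ZNF30 with ZNF792 were higher together, ZNF324 and ZNF446 were lower together, and ZNF627 was lower beside ZNF823, which was higher. The call of ZNF211, at 0.26, was lost when any 1 array was left out (adjusted p = 0.0673 to 0.122). Without the array of the third TRPM2-AS siRNA column the adjusted p was 0.0663 for ZNF581, 0.0619 for ZNF773 and 0.0578 for ZNF682. The other probe of ZNF682 stood at 0.04, and the mean of its probes at 0.26 did not pass (adjusted p = 0.0852). ZNF324 lost its call without the third or the fourth (adjusted p = 0.0511 to 0.0778).

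**Figure D4:**
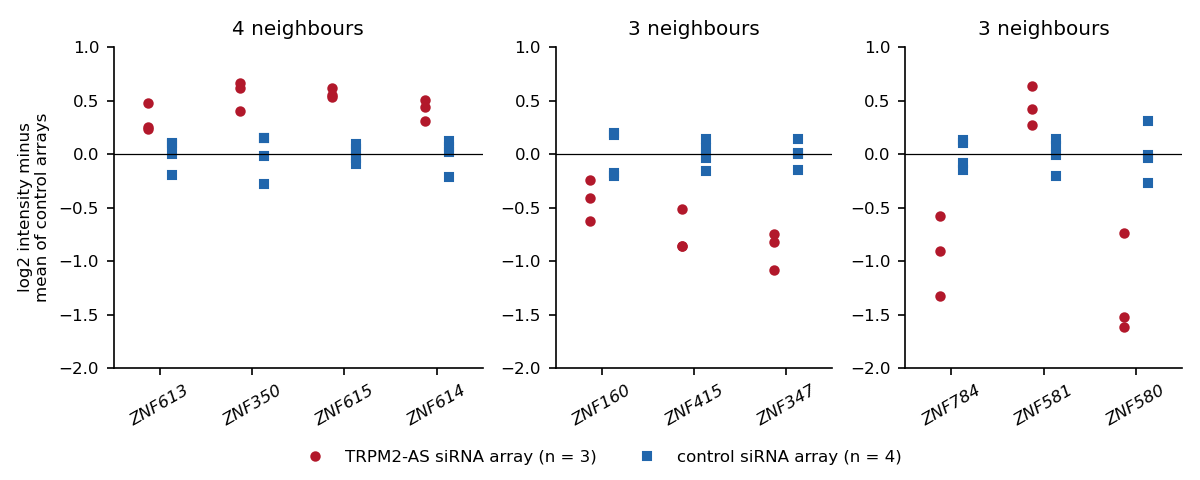
Log2 intensity of each array minus the mean of the control arrays (y axis) for 3 runs of neighbouring ZNF genes on chromosome 19; red circles are TRPM2-AS siRNA arrays (n = 3) and blue squares control arrays (n = 4). The genes from ZNF613 to ZNF614 were all higher, those from ZNF160 to ZNF347 all lower, and ZNF581 was higher between ZNF784 and ZNF580, which were lower.

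Repeat and imprint regulators were mostly not detected. Of 9 listed genes, 3 were tested and 1 rose, where 27.4% of all genes did. ZNF93, which represses LINE-1 elements, rose by 0.37 ± 0.13 (SE, limma adjusted p = 0.0311), and lost the call without the third or the fourth control column or the first or the fourth TRPM2-AS siRNA column (adjusted p = 0.059 to 0.0933). It also lost it without background correction (0.24, adjusted p = 0.0504) and on the authors' processed values (0.19, adjusted p = 0.0887). ZNF91, which represses SVA elements, was at 0.29 ± 0.13 and ZNF274, which brings SETDB1 to the 3′ ends of ZNF genes, at 0.36 ± 0.16 (SE), neither past the test. ZNF274 passed it in 6 of 22 alternatives, among them the authors' processed values (0.32, adjusted p = 0.0163), and ZNF91 in 3.

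The list of transcriptional activators and chromatin cofactors had 2 genes higher and 8 lower. It mixes activators with partners of repressor complexes, so these counts are not those of activators. Of 28 listed, 16 were tested, and 12.5% rose against 27.4% of all genes and 50% fell against 29.6%, with a median of -0.46 against -0.01. These shares were not tested, and the list was chosen with earlier results of these data known. Beside ZNF281, ZNF143, an activator of snRNA and mRNA promoters that also anchors chromatin loops, rose by 0.59 ± 0.16 (SE). ZNF217, a breast cancer oncogene product that works with CoREST, had 9.91, 9.79 and 9.98 in TRPM2-AS siRNA arrays, against 10.91, 10.44, 10.81 and 10.93 in control arrays. It was lower on every array, with a log2 fold change of -0.88 ± 0.14 (SE), limma adjusted p = 2.48e-04. ZNF341, which activates STAT3 transcription, fell by 0.77, and ZNF827, which brings NuRD to telomeres, by 1.07. ZNF644 and ZNF462, partners of the H3K9 methyltransferase G9a, fell by 0.50 and 0.47, but lost the call with the left-out array included (adjusted p = 0.32 and 0.0882), and ZNF644 also with the mean of its probes (adjusted p = 0.129). ZNF219 fell by 0.45 and ZNF148 by 0.44. ZNF148 lost its call without the first or the third control column or the first or the fourth TRPM2-AS siRNA column (adjusted p = 0.0564 to 0.0811). ZNF219 lost it without the second control column or the third or the fourth TRPM2-AS siRNA column (adjusted p = 0.0566 to 0.0984). ZNF219 also lost it without background correction (-0.25, adjusted p = 0.0519) and on the authors' processed values (-0.21, adjusted p = 0.0723). ZNF410, which activates CHD4, was at 0.23 ± 0.13 and did not pass, and ZNF384, ZNF335, ZNF202, ZNF76 and ZNF263 did not pass either. ZNF384 passed in 3 alternatives, among them the authors' processed values (-0.32, adjusted p = 0.0319), ZNF335 in 3 and ZNF410 in 1.

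Genes with roles in RNA, ribosomes, the spindle or SUMO went both ways. Of 13 listed, 12 were tested, with 4 higher and 4 lower (33.3% each, against 27.4% and 29.6% of all genes) and a median of 0.04. ZNF622, a ribosome biogenesis factor, had 11.88, 11.94 and 12.07 in TRPM2-AS siRNA arrays, against 11.20, 11.16, 11.32 and 11.34 in control arrays. Its arrays were all higher, by 0.71 ± 0.11 (SE), limma adjusted p = 2.34e-04. ZNF365 rose by 0.46, ZNF326, which links splicing to RNA polymerase II in the DBIRD complex, by 0.40, and ZNF330 by 0.37. Beside ZNF473, ZNF346 and ZNF598, the SUMO ligase ZNF451 fell by 0.60, and lost the call without the array of the fourth TRPM2-AS siRNA column (adjusted p = 0.0566). Without that column, or without the fourth control column, ZNF326 lost its call (adjusted p = 0.0558 to 0.0849), as did ZNF330 without either of these, the third control column or the first TRPM2-AS siRNA column (adjusted p = 0.0504 to 0.0746). ZNF207, ZNF593, ZNF706 and ZNF830 did not pass.

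Of the corepressor and heterochromatin genes that act with KRAB proteins, 3 of 19 tested rose and 9 fell. TRIM28, the KRAB corepressor itself, averaged 11.3 ± 0.37 in TRPM2-AS siRNA arrays and 11.3 ± 0.27 in control arrays (SD, n = 3 and 4), a log2 difference of -0.02 ± 0.19 (SE) that did not pass (95% interval -0.44 to 0.40). Of 23 listed, 19 were tested, 15.8% rose against 27.4% of all genes and 47.4% fell against 29.6%, with a median of -0.27. These shares were not tested against each other, and the lists of this paragraph were also chosen with earlier results of these data known. HDAC1, a NuRD deacetylase, averaged 11.5 ± 0.11 in TRPM2-AS siRNA arrays and 13.3 ± 0.04 in control arrays (SD, n = 3 and 4), a decrease of 3.31-fold (limma adjusted p = 2.69e-07). CHD4, the NuRD remodeller, fell by 1.59 and SUV39H1, an H3K9 methyltransferase, by 1.67 on the log2 scale. UHRF1 fell by 1.16 and SETDB1 by 0.54, while DAXX, a histone H3.3 chaperone, rose by 1.003. Of the other NuRD genes, MTA1 fell by 0.40 and MTA2 rose by 0.60, and HDAC2, RBBP4 and RBBP7 did not pass. Of the HP1 genes, CBX1 fell by 0.56 and CBX3 by 0.60, while CBX5 rose by 0.65. In the HUSH and MORC list, 4 of 5 tested genes fell, against 29.6% of all genes, and 0 rose, against 27.4%: MORC2 by 1.34, TASOR by 0.52, PPHLN1 by 0.43 and MPHOSPH8 by 0.30, whose call was lost without any 1 array but that of the first TRPM2-AS siRNA column (adjusted p = 0.0645 to 0.191). MORC3 was at 0.14 and did not pass.

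Related zinc finger families had too few genes for more than counts. Of 20 ZBTB genes, 5 rose and 7 fell, of 7 ZSCAN genes 2 rose and 3 fell, and of 4 ZKSCAN genes 1 rose and 2 fell. Of 5 ZFP genes 2 rose and 0 fell, and of 9 ZC3H genes 2 rose and 5 fell. Of 16 genes named ZNF with a number and a letter, which the selection did not take, 3 rose and 9 fell. Over all genes, 27.4% rose and 29.6% fell.

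Where genes had several probes, they mostly went the same way. Of 44 ZNF genes with at least 2 passing probes, 35 had every probe on the same side of 0, and in 14 every probe passed the test on that side. ZNF160 was the only one of the 44 with probes called in opposite directions. The other 192 had 1 passing probe.

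ZNF genes just outside the detection rule included some seen in 1 group only. ZNF226, ZNF70, ZNF71, ZNF24 and ZNF649 were detected on 3 of 3 arrays after TRPM2-AS siRNA and 0 of 4 after control siRNA, and were at least 2.45-fold, 1.57-fold, 1.39-fold, 1.38-fold and 1.19-fold higher. ZNF138, ZNF763 and ZNF587 were detected on 0 of 3 arrays after TRPM2-AS siRNA and 3 of 4 after control siRNA, and were at least 1.30-fold, 1.26-fold and 1.17-fold lower. These genes were picked for being detected in 1 group only, so their direction was fixed by that choice. Each bound is a difference of group means, set against the lowest detected signal of each array, and carries no error. These genes were not tested. Of the ZNF genes outside the rule, 151 were detected on 0 arrays.

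The authors' processed values, which include 4 samples of each siRNA, gave close counts. Of the 127 genes that passed above, 121 passed there on the same side and 0 on the opposite side, and of all 236 genes 63 were higher and 66 lower. Both sets come from largely the same arrays and are not independent. The TRPM2-AS siRNA columns used above traced to the processed samples numbered 1, 2 and 4. The remaining processed sample of that group matched no raw column, and the left-out column matched no processed sample. These counts therefore do not show what including the left-out column does. The sign matched in 229 of 236 genes, and the slope of the processed on the raw log2 fold change was 0.716, so differences were smaller there. On the processed values ZNF346 was at -0.78, ZNF784 at -0.45, ZNF347 at -0.43 and ZNF350 at 0.34, each still past the test.

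**Figure D5:**
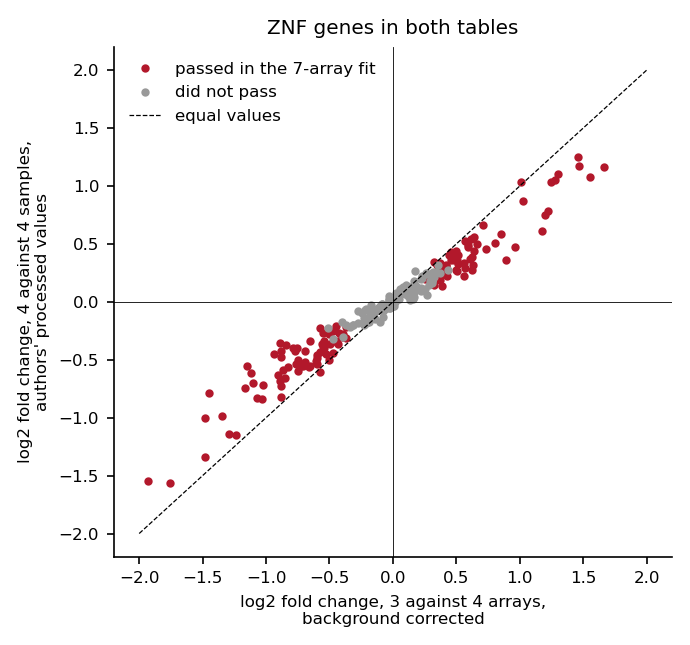
Log2 fold change of each of the 236 ZNF genes from 3 against 4 background-corrected arrays (x axis) and from the authors' processed values of 4 against 4 samples (y axis); red points passed the test in the 7-array comparison, grey ones did not, and the dashed line marks equal values. Points lie along a line flatter than equality, with a slope of 0.716.

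The left-out column stood nearer the controls. Of the 127 genes, its value was nearer the control mean in 101 and nearer the TRPM2-AS siRNA mean in 26, and its median position was 10.3% of the way from control to TRPM2-AS siRNA. With all 8 columns under their names, 42 ZNF genes passed, 18 higher and 24 lower, and 2348 of all genes. Of the genes described above, ZNF256, ZNF800, ZNF626, ZNF419, ZNF185, ZNF281, ZNF473, ZNF395, ZNF589, ZNF275 and ZNF598 kept their calls in that comparison. ZNF346, ZNF567, ZNF227, ZNF143, ZNF217, ZNF622, ZNF365, ZNF350, ZNF613, ZNF614, ZNF415, ZNF347, ZNF446, ZNF580, ZNF581, DAXX, SETDB1 and PPHLN1 lost theirs, as did the genes named above as losing a call when 1 array was left out.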

How the data were processed

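Per the labels' protocols, total RNA was taken from PC3 cells 48 h after transfection, with biotin as the label and Illumina bead arrays as the platform. The authors deposited raw probe intensity with a detection p-value for each column, made in BeadStudio per the submitters' processing notes, plus processed intensity per sample, with limma named there. Their settings and versions were not given in the sources used here. The number of arrays limits the precision.

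Raw intensity was background corrected from the detection p-values (nec, offset 16), quantile normalized and put on log2 in R 4.3.3 with limma 3.58.1. Probes detected on at least 4 of 7 arrays (13675 of 48798) were kept, with the brightest probe per gene, and the groups were compared with lmFit and eBayes, with 9272 genes adjusted together. The platform annotation names 1 gene for 28094 probes, several for 13 and none for 20691. The procedure was tested on simulated data. Named were the 15 highest and 15 lowest called genes with groups apart, genes undetected in 1 group, listed role genes, genes with opposed probes and up to 6 genes of each other list. The other listed NuRD and HP1 genes were given beside these and were not taken into the checks of named genes below. Neighbour runs were chosen after their values were seen. The members and lists were chosen with earlier results of these data known. Domain structure of the proteins was not analysed here. Alternatives covered background, normalization, filters, probes, weights, the processed values and leaving out each array.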

Additional observations from a re-analysis of the deposited data

Results flagged for a closer look

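In 7 of 86 named genes, 1 of the 4 control arrays stood apart from the other 3, its gap divided by the range being over the limit of Dixon's test, which chance passes in about 1 of 20 groups. The ratio was 0.856 for ZNF626 (lowest control 7.93, next 8.23), 0.835 for ZNF329 (highest 9.19, next 8.91), 0.87 for ZNF514 (lowest 7.21, next 7.37) and 0.866 for ZNF275 (lowest 10.3, next 10.4). It was 0.882 for ZNF462 (highest 10.5, next 10.2), 0.916 for UHRF1 (lowest 12.7, next 12.9) and 0.835 for SETDB1 (highest 8.38, next 8.07), all in log2 intensity. In all 7 genes the groups stayed apart with that array kept.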

How the results depend on the processing

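Of the 86 genes named, 72 passed the test, 33 of them in the same direction in every alternative and 56 when the comparison of all 8 columns was set aside. Including the untraced column ended 39 of the 72 calls. It left 42 ZNF genes changed, 18 higher and 24 lower, with 2348 over all genes, and 12 higher and 6 lower on chromosome 19 with 6 higher and 18 lower elsewhere. The other alternatives kept these counts within 1.5 times, and leaving out 1 array gave 108 to 119 changed ZNF genes.

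The median log2 fold change of the ZNF genes moved to -0.0332 with 1 median per array, 0.0229 with array weights and -0.0252 with all 8 columns, and lay between -0.0356 and 0.00739 with 1 array left out. On chromosome 19 the median was 0.0798 with no background correction, 0.108 with an offset of 50, 0.0641 with no filter on dim probes, 0.0921 with array weights, 0.0962 with the authors' processed values and 0.0816 with those of the 7 traced samples, chosen after seeing the data. It lay between 0.11 and 0.178 with 1 array left out. On other chromosomes it was -0.0802 with cyclic loess, -0.0425 with no filter, -0.0845 with detection p under 0.05, -0.0864 with array weights and -0.0733 with the processed values, and between -0.207 and -0.0737 with 1 array left out. The causes of these shifts were not tested. ZNF160 turned to 0.0192 when its probes were averaged.

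Replicate numbers are shared by the groups in the labels. On the processed values, deviations from the group mean over all tested genes correlated between same-numbered samples at 0.392, -0.072, 0.093 and 0.229. The highest correlation with a differently numbered control sample was 0.129, 0.173, 0.124 and 0.021. Same-numbered samples thus stood higher for numbers 1 and 4 but not for 2 and 3, and the main comparison used no pairs. With the replicate block on the processed values, 138 ZNF genes changed, 69 higher and 69 lower, against 129 without it. The medians with the block were 0.0962 on chromosome 19 and -0.0733 elsewhere. ZNF526 was above background on control arrays only, so its fold is a bound.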
